A study of Mus musculus with 6 samples.

Results

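The MHC class I and peptide loading genes are the genes whose products make, load and switch on the molecules that show peptides of the cell interior at the surface. They were chosen by name, as a list of 10 gene symbols. The 10 members, H2-K1, H2-D1, B2m, Tap1, Tap2, Tapbp, Nlrc5, Erap1, Calr and Pdia3, were read from a table with 26082 different names. Of these members, 9 had an entry of their own. The remaining member, H2-D1, stood in 1 entry joined with H2-Q7, another class I heavy chain, so its values cover both genes and are called the H2-D1/H2-Q7 entry.

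RNA-Seq was performed on MLL-AF9 leukemia cells, a mouse model of acute myeloid leukemia in the C57BL/6J strain. To make the model, c-Kit+ bone marrow progenitors receive the MLL-AF9 fusion oncogene together with GFP from a retrovirus and are transplanted into recipient mice, whose marrow also holds host cells. In the vehicle group, 3 leukemic mice received vehicle, and in the DS-5272 group 3 leukemic mice received DS-5272, an inhibitor of the p53-MDM2 interaction, at 80 mg/kg by mouth. Leukemia cells were isolated from the bone marrow with a cell sorter 24 h later, and the age of the mice and the sort gate of these libraries could not be read from the sources used here. The comparison asks how the expression of these genes differed between vehicle- and DS-5272-treated MLL-AF9 cells.

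Class I molecules consist of a heavy chain and beta-2 microglobulin, and they fold in the endoplasmic reticulum around a peptide made mostly by the proteasome and carried in by the TAP transporter. Tapasin, calreticulin and ERp57 hold the empty molecule at the transporter until a peptide fits, and cytotoxic T cells then read the complex at the cell surface. NK cells read the same molecules through inhibitory receptors, and interferons are known inducers of most genes of the pathway.

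Values are FPKM, fragments per kilobase of transcript corrected for library size, as the authors deposited them, and are listed in the order of replicates 1, 2 and 3. A vehicle sample held a sum of 445316, 492100 or 501241 FPKM over its genes, and a DS-5272 sample one of 499229, 579884 or 661184 FPKM. Depth was estimated from the steps between low FPKM values, at 4.31e+07 fragments for vehicle replicate 1. Relative to that sample, the other vehicle replicates had depths of 0.808 and 0.885, and the DS-5272 replicates had depths of 0.746, 0.652 and 0.539. Each vehicle sample was thus deeper than each DS-5272 sample. Because the sums differed, the members and the counts of the related lists are also given after scaling each sample to a common total. Other named genes are given as deposited, with the common total for some of them. The median log2 fold change of all genes tested was 0.04 as deposited and −0.20 after scaling to a common total. Fold changes are on the scale of log2(FPKM + 1), on which low genes, Nlrc5 among the members, appear to differ less than they do.

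Markers of MLL-AF9 myeloid cells were present in all libraries, and single markers moved in both directions. The 9 entries of the list for MLL-AF9 myeloid cells summed to 872, 872 and 1085 FPKM in the vehicle replicates and to 1371, 1566 and 2218 FPKM in the DS-5272 replicates. Itgam was the most abundant of them. As deposited 5 of the 9 were called higher and 2 lower (limma, Benjamini-Hochberg), beside 24.2% and 22% of all genes, and on the common total 5 and 3, beside 15.3% and 32%. Mpo, myeloperoxidase, stood at 218, 140 and 325 FPKM with vehicle and at 3.77, 12.2 and 3.25 FPKM with DS-5272, a log2 fold change of −5.07 (limma, Benjamini-Hochberg adjusted p = 0.0014). Ptprc, the pan-leukocyte marker, stood at 66, 76.5 and 84.5 FPKM with vehicle and at 141, 169 and 214 FPKM with DS-5272. Kit, the progenitor receptor, stood at 45, 32.3 and 30.5 FPKM with vehicle and at 12.1, 9.7 and 4.94 FPKM with DS-5272, and no DS-5272 sample reached the lowest vehicle sample.

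DS-5272-treated MLL-AF9 cells expressed more of both heavy chain entries, of B2m, Tap1, Tapbp, Pdia3 and Nlrc5. These are 7 of the 10 members, each of which passed the minimum mean of 1 FPKM, whereas 24.2% of the 11130 genes tested were called higher (limma with Benjamini-Hochberg adjustment over all genes tested, threshold 0.05). No member was called lower, against 22% of all genes, and the unadjusted limma p-values under 0.05 gave 0 lower members too. Every DS-5272 sample lay above every vehicle sample for the same 7 members, which was the case for 32.1% of all genes, and the reverse held for 0 members and 29.7% of all genes. Scaling to a common total left 4 members called higher, the heavy chain entries, B2m and Tapbp, against 15.3% of 11152 genes, and 0 called lower, against 32%, with 0 lower by unadjusted limma p-values too. On this scale the fit with a replicate block called 5 members higher and 2, Tap2 and Erap1, lower (both adjusted p = 0.028), beside 20% and 40.8% of all genes. On that scale 5 members, those 4 and Pdia3, lay higher in every DS-5272 sample, against 20.1% of all genes, and 0 lay lower in every one, against 41%. The numbers of all genes called higher and lower were 2697 and 2451 as deposited and 1709 and 3565 after scaling to a common total. The median log2 fold change of the members was 0.69, beside 0.04 for all genes, and 0.43 beside −0.20 on the common total. The count of 7 fell to 4 when vehicle replicate 2 was left out, as the count of all genes fell to 1654 of 11148. The 4 of the common total fell to 2 without vehicle replicate 2, with 1095 of 11145 genes higher, and without vehicle replicate 3, with 1161 of 11161. With an added minimum of 1 for the log2 fold change, 1 member, Tapbp, was called higher, beside 978 of all 11130 genes. Adjusted p-values set the group difference against the spread among these 6 mice within the groups, estimated with help from all genes. In bulk RNA fewer or more cells of a type and less or more RNA per cell cannot be told apart.

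**Figure D1:**
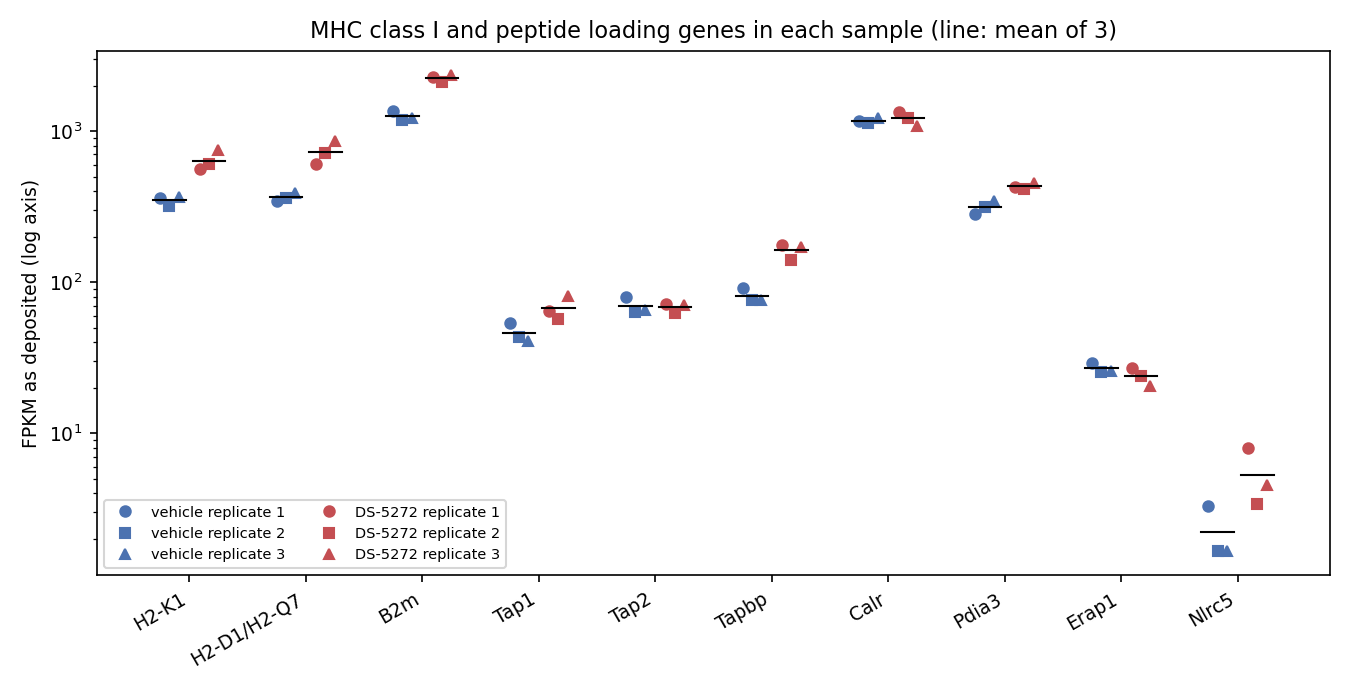
FPKM as deposited (log axis) of the 10 members in each of the 6 samples, with the symbol shape giving the replicate number and the line the mean of 3. The red points lie above all blue points for 7 members, while the groups overlap for Tap2, Calr and Erap1.

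The levels span a wide range, and FPKM allows them to be compared between genes since transcript length is divided out. B2m and Calr were the most abundant members in vehicle-treated cells, at means of 1256 ± 94.7 and 1170 ± 43.5 FPKM (SD, n = 3). The H2-D1/H2-Q7 entry, H2-K1 and Pdia3 followed at 364 ± 22.1, 349 ± 26.6 and 313 ± 30.9 FPKM. Next came Tapbp, Tap2, Tap1 and Erap1, at 80.8 ± 8.77, 69.6 ± 9.32, 45.9 ± 6.65 and 26.9 ± 2.09 FPKM, and Nlrc5 was lowest at 2.21 ± 0.958 FPKM. The order of the means was the same in DS-5272-treated cells. In the vehicle samples the ranges of 4 neighbouring pairs in this order overlapped, namely B2m with Calr, the H2-D1/H2-Q7 entry with H2-K1, H2-K1 with Pdia3, and Tapbp with Tap2. In the DS-5272 samples the ranges of the heavy chain entries overlapped, as did those of Tap2 and Tap1, while B2m stood clear of Calr and Tapbp clear of Tap2.

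H2-K1 encodes the classical heavy chain H-2K. The gene lies at chr17:33996017-34000347 on the minus strand (GENCODE annotation of GRCm38), and no exon of it overlaps another gene. H2-D1, the classical heavy chain H-2D, lies at chr17:35262730-35267499 on the plus strand, and H2-Q7, a heavy chain of the Qa-2 antigen, at chr17:35439155-35443773 on the plus strand. B2m encodes beta-2 microglobulin, the light chain that all class I molecules share, at chr2:122147686-122153083 on the plus strand. Of the stretches of 100 bases in the reference transcript, 0% were shared with another gene for H2-K1 and B2m, 4.64% for H2-D1 and 16.4% for H2-Q7.

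These genes are shown with their promoters because the heavy chain entries and B2m rose together. Promoter windows of RefSeq (GRCm38.p6, 250 bases before to 50 bases after the gene start) were found for 8 of the 10 members, with no window for Tap2 and Nlrc5. Windows were searched on both strands for TGACG, which is the core of the X2 box of class I promoters, and CCAAT, the Y box. The core of the interferon-stimulated response element (ISRE), GAAA repeated after 2 bases, and a palindromic kappaB site were searched too. The 30 bases from TGACG to ATTGG, which is CCAAT on the other strand, are given for the 3 members in which 20 bases lie between them, with the motifs in capitals. They lie at chr17:34000359-34000388 on the minus strand for H2-K1, at chr17:35262993-35263022 on the plus strand for H2-D1 and at chr2:122147609-122147638 on the plus strand for B2m. For H2-K1 and B2m they lie upstream of the annotated gene, while for H2-D1 all 30 bases lie in an exon of a longer GENCODE transcript.
H2-K1: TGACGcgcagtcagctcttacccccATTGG
H2-D1: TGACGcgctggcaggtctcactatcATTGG
B2m: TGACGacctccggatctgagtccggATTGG

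The 30 bases of H2-K1 and H2-D1 were identical at 23 positions, while those of B2m shared 13 with H2-K1 and 12 with H2-D1. Between the motifs, 13 of the 20 bases were the same in H2-K1 and H2-D1, and 3 and 2 in the comparisons with B2m. The stretch was found in 31 of 32817 promoter windows (0.0945%), which belong to 27 gene symbols, among them H2-M3 of the other class I molecules. The spacing of 20 bases was read off the windows of the members, so their place among the 31 windows was fixed in advance. Gaps of 19 and 21 bases were counted too, with 12 and 23 windows and 0 members. These counts describe the background and cannot test a spacing chosen from the members. The longer upstream sequences that follow, with the matches in capitals, namely kappaB, TGACG and ATTGG in H2-K1 and ISRE, TGACG and ATTGG in B2m, are chr17:34000348-34000547 on the minus strand for H2-K1 and chr2:122147487-122147685 on the plus strand for B2m.
H2-K1 upstream: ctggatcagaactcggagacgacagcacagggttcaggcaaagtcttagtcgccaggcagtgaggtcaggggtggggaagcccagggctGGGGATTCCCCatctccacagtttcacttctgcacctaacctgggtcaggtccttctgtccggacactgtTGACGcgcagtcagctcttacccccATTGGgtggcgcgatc
B2m upstream: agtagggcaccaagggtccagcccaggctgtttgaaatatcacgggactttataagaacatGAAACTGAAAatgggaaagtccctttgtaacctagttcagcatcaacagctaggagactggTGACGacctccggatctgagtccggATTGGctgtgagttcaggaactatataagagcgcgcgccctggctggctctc

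The palindromic kappaB site occurred in the windows of H2-K1 and H2-D1, and in 10 (0.0305%) of all 32817 windows. The ISRE core occurred in the windows of B2m and Erap1 and in 3.43% of all windows, and other forms of this element were not searched. TGACG was found in 5 of the 8 members with a window and in 20.8% of all windows, CCAAT in 7 of the 8 and in 37.4% of all windows, and both in 5 of the 8 and 7.71%. A match is a description of the letters in the window and not of a bound site.

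**Figure D2:**
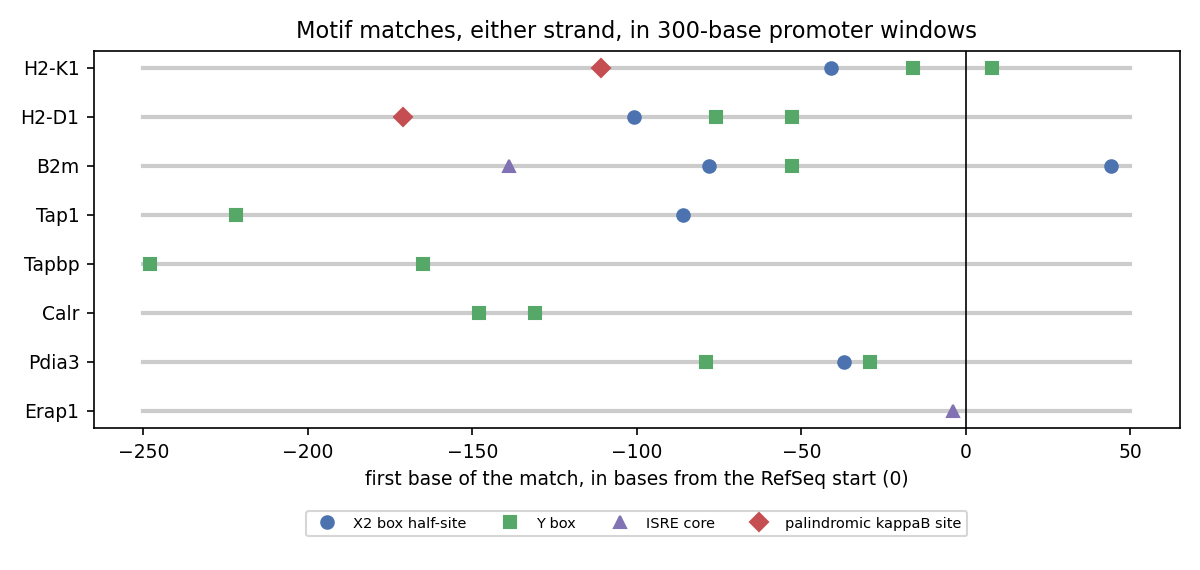
Matches of the 4 motifs on either strand in the 300-base promoter windows of 8 members, plotted by the distance of their first base from the RefSeq start. The kappaB letters occur in H2-K1 and H2-D1, and those of the interferon-stimulated response element (ISRE) in B2m and Erap1.

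With vehicle, H2-K1 expression measured 362, 319 and 367 FPKM, whereas the DS-5272 samples reached 557, 610 and 749 FPKM. All DS-5272 samples lay above all vehicle samples, and DS-5272 replicate 3 was the highest. The mean rose from 349 ± 26.6 to 638 ± 99.1 FPKM (SD, n = 3), 1.83 times, with a log2 fold change of 0.86 (SE 0.15, 95% interval 0.51 to 1.21, limma with Benjamini-Hochberg adjusted p = 0.0059). After scaling to a common total the values were 431, 343 and 388 with vehicle and 591, 557 and 600 with DS-5272, and the log2 fold change was 0.59 (limma, Benjamini-Hochberg adjusted p = 0.0062).

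The H2-D1/H2-Q7 entry stood at 344, 361 and 387 FPKM under vehicle, against 604, 721 and 866 FPKM under DS-5272. The groups did not overlap. The mean rose 2.01 times, from 364 ± 22.1 to 731 ± 131 FPKM (SD, n = 3), with a log2 fold change of 0.99 (SE 0.16, 95% interval 0.61 to 1.37, limma with Benjamini-Hochberg adjusted p = 0.0049). On the common total it was 0.72 (limma, Benjamini-Hochberg adjusted p = 0.0016). What share of the rise came from either gene cannot be told apart in a joined entry.

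B2m stood at 1363, 1181 and 1226 FPKM with vehicle and at 2265, 2115 and 2366 FPKM with DS-5272. This was the tightest of the upregulated members within the DS-5272 group apart from Pdia3, with a coefficient of variation of 5.62%. Its mean rose 1.79 times to 2248 ± 126 FPKM (SD, n = 3), and the log2 fold change was 0.84 (SE 0.14, 95% interval 0.52 to 1.17, limma with Benjamini-Hochberg adjusted p = 0.0052). In the scaled values the log2 fold change was 0.57 (limma, Benjamini-Hochberg adjusted p = 0.015), and it missed the threshold on that scale without vehicle replicate 2 (adjusted p = 0.0555) or without vehicle replicate 3 (adjusted p = 0.0517).

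Ratios between members within a sample do not change when a sample is multiplied by a constant, as for the common total, although quantile normalization does change them. The 6 ratios compared are of FPKM as deposited. H2-K1 amounted to 0.266, 0.27 and 0.3 of B2m in the vehicle samples and to 0.246, 0.288 and 0.316 in the DS-5272 samples. The groups overlapped and the mean log2 ratio differed by 0.02, less than the SD of 0.09 among the vehicle samples (exact permutation p = 1, adjusted over 6 ratios 1). For the H2-D1/H2-Q7 entry the ratio to B2m was 0.252, 0.306 and 0.316 with vehicle and 0.267, 0.341 and 0.366 with DS-5272, a difference of 0.15 on the log2 scale (two-sided exact permutation p = 0.4, adjusted 0.48). The groups overlapped, but within all 3 pairs of the same replicate number the DS-5272 sample had the higher ratio, with a paired exact permutation p of 0.25, the smallest that 3 pairs allow. H2-K1 stood to the H2-D1/H2-Q7 entry at 1.05, 0.883 and 0.948 with vehicle and 0.921, 0.846 and 0.864 with DS-5272, a difference of −0.13 on the log2 scale (exact permutation p = 0.2, adjusted 0.3), and was lower with DS-5272 in each of the 3 pairs (paired exact permutation p = 0.25). With 3 mice against 3, the unpaired exact permutation test cannot go below p = 0.1, so none of the 6 ratios could pass the threshold.

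Tap1 and Tap2 encode the subunits of the transporter that moves peptides from the cytosol into the endoplasmic reticulum. Tap1 lies at chr17:34187553-34197225 and Tap2 at chr17:34203527-34216321, both on the plus strand of the MHC region. Exons of Tap1 overlap those of Psmb9 on the other strand and exons of Tap2 those of Gm15821 and Gm20496, so that 3.96% and 5.35% of their 100-base stretches are shared. The library kit keeps the strand, but no strand setting is given for the counting, so it is uncertain to which gene reads of these overlaps were assigned.

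Tap1 stood at 53.4, 43.6 and 40.6 FPKM with vehicle, compared with 64.8, 56.9 and 81.4 FPKM with DS-5272. The groups did not overlap, and the lowest DS-5272 sample was close to the highest vehicle sample. The mean rose 1.48 times, from 45.9 ± 6.65 to 67.7 ± 12.5 FPKM (SD, n = 3), with a log2 fold change of 0.55 (SE 0.17, 95% interval 0.15 to 0.94, limma with Benjamini-Hochberg adjusted p = 0.034). Scaling to a common total ended the call, at 0.28 (95% interval −0.14 to 0.71, limma with Benjamini-Hochberg adjusted p = 0.23), and the groups then overlapped. The call also ended without vehicle replicate 2 (adjusted p = 0.109), vehicle replicate 3 (0.115), DS-5272 replicate 1 (0.0551) or DS-5272 replicate 3 (0.0691).

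Tap2 stood at 80.3, 63 and 65.5 FPKM with vehicle and at 71.2, 62.8 and 71 FPKM with DS-5272. The groups overlapped, and the log2 fold change was −0.02 (SE 0.12, 95% interval −0.32 to 0.28, limma with Benjamini-Hochberg adjusted p = 0.9), with a positive sign without vehicle replicate 1 or DS-5272 replicate 2. Scaled to a common total, it was −0.28 (95% interval −0.70 to 0.14, limma with Benjamini-Hochberg adjusted p = 0.22), and there Tap2 was called lower when the replicate number entered as a block (adjusted p = 0.028).

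The ratio of Tap1 to Tap2 was 0.665, 0.692 and 0.621 in the vehicle samples and 0.909, 0.907 and 1.15 in the DS-5272 samples. Every DS-5272 sample lay above every vehicle sample, and the mean log2 ratio differed by 0.58 (two-sided exact permutation p = 0.1, the smallest it allows, adjusted 0.2).

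Tapbp encodes tapasin, which tethers class I molecules to the transporter and favours stable peptides. It lies at chr17:33915899-33929292 on the plus strand, where its exons overlap those of Zbtb22 on the same strand and Gm19412 on the other, and 14% of its 100-base stretches are shared with other genes. Tapbp stood at 90.9, 75.7 and 75.7 FPKM with vehicle and at 176, 141 and 172 FPKM with DS-5272. Each DS-5272 sample was well above the vehicle samples, with DS-5272 replicate 2 the lowest of them. The mean rose 2.02 times, from 80.8 ± 8.77 to 163 ± 19.1 FPKM (SD, n = 3), with a log2 fold change of 1.01 (SE 0.13, 95% interval 0.69 to 1.32, limma with Benjamini-Hochberg adjusted p = 0.0031).

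On the common total Tapbp stood at 108, 81.5 and 80.1 with vehicle and 187, 129 and 138 with DS-5272, and the log2 fold change was 0.74 (limma, Benjamini-Hochberg adjusted p = 0.016). It missed the threshold on that scale without vehicle replicate 2 (adjusted p = 0.0609) or vehicle replicate 3 (adjusted p = 0.0568). The ratio of Tap1 to Tapbp was 0.587, 0.576 and 0.537 in the vehicle samples and 0.367, 0.403 and 0.472 in the DS-5272 samples. All DS-5272 samples lay below, and the log2 ratio differed by −0.46 (two-sided exact permutation p = 0.1, the smallest it allows, adjusted 0.2).

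Calr encodes calreticulin, the lectin chaperone that holds newly made heavy chains, and Pdia3 encodes ERp57, the oxidoreductase bound to tapasin. Calr lies at chr8:84841850-84846934 on the minus strand and Pdia3 at chr2:121413775-121438687 on the plus strand, where an exon overlaps Catsper2 on the other strand. Calr stood at 1163, 1130 and 1216 FPKM with vehicle and at 1341, 1215 and 1081 FPKM with DS-5272. The groups overlapped, with the highest and the lowest of the 6 values both in the DS-5272 group. Its log2 fold change was 0.05 (SE 0.14, 95% interval −0.28 to 0.37, limma with Benjamini-Hochberg adjusted p = 0.79) and turned to −0.22 on the common total (95% interval −0.64 to 0.20, adjusted p = 0.33). Without DS-5272 replicate 1, Calr was called lower on the common total, at −0.40 (limma, Benjamini-Hochberg adjusted p = 0.0445).

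Pdia3 stood at 281, 315 and 343 FPKM with vehicle and at 427, 415 and 454 FPKM with DS-5272, without overlap. The mean rose 1.38 times, from 313 ± 30.9 to 432 ± 19.8 FPKM (SD, n = 3), with a log2 fold change of 0.47 (SE 0.12, 95% interval 0.19 to 0.75, limma with Benjamini-Hochberg adjusted p = 0.019). With a common total the call ended, at 0.20 (95% interval −0.05 to 0.45, limma with Benjamini-Hochberg adjusted p = 0.15), although the groups still did not overlap. As deposited it ended without vehicle replicate 1 (adjusted p = 0.0647) or vehicle replicate 2 (0.0726). The ratio of Calr to Pdia3 was 4.14, 3.58 and 3.55 in the vehicle samples and 3.14, 2.92 and 2.38 in the DS-5272 samples. Every DS-5272 sample lay below every vehicle sample, and the log2 ratio differed by −0.42 (two-sided exact permutation p = 0.1, the smallest it allows, adjusted 0.2).

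**Figure D3:**
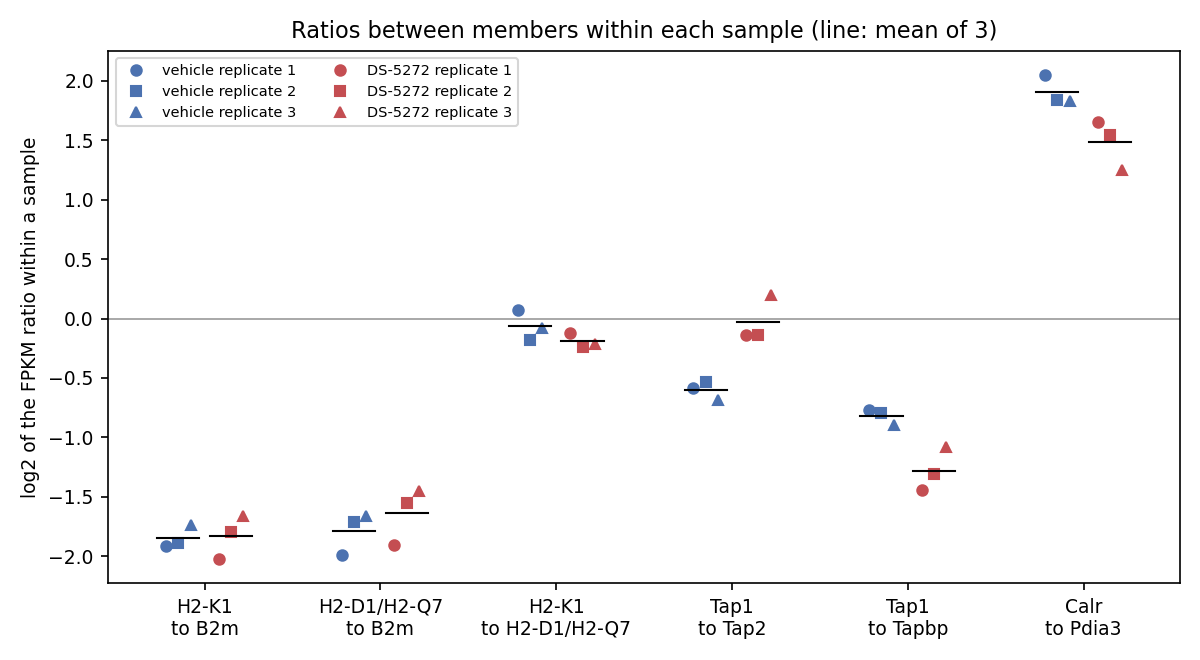
Log2 ratio of FPKM between pairs of members within each of the 6 samples, with the line marking the mean of 3. The groups separate for Tap1 to Tap2, Tap1 to Tapbp and Calr to Pdia3 and overlap for the ratios among the heavy chain entries and B2m.

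Erap1 encodes the aminopeptidase of the endoplasmic reticulum that trims peptides to the length class I molecules bind. It lies at chr13:74639568-74693201 on the plus strand, and 13.3% of its 100-base stretches are shared with Cast, whose exons overlap it on the other strand. Erap1 stood at 29.3, 25.5 and 25.9 FPKM with vehicle and at 26.9, 24.1 and 20.5 FPKM with DS-5272. The groups overlapped, and the log2 fold change was −0.17 (SE 0.13, 95% interval −0.47 to 0.12, limma with Benjamini-Hochberg adjusted p = 0.29). After scaling to a common total it was −0.43 (95% interval −0.93 to 0.07, limma with Benjamini-Hochberg adjusted p = 0.13). There Erap1 was called lower in the fit with the replicate block (adjusted p = 0.028) and without DS-5272 replicate 1 (−0.62, adjusted p = 0.0294).

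Nlrc5 encodes the class I transactivator, an NLR protein that acts on the promoters of heavy chain, B2m and transporter genes. It lies at chr8:94434356-94527272 on the plus strand, where an exon overlaps 9330175E14Rik on the other strand. Nlrc5 stood at 3.32, 1.65 and 1.66 FPKM with vehicle and at 7.94, 3.38 and 4.51 FPKM with DS-5272. Replicate 1 was the highest in both groups, and the lowest DS-5272 sample was barely above the highest vehicle sample. The mean rose 2.39 times, from 2.21 ± 0.958 to 5.28 ± 2.38 FPKM (SD, n = 3), with a log2 fold change of 0.94 (SE 0.31, 95% interval 0.20 to 1.68, limma with Benjamini-Hochberg adjusted p = 0.045). Its coefficient of variation within a group, 43.3% with vehicle and 45% with DS-5272, was the largest among the members.

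The call of Nlrc5 ended on the common total, at 0.74 (95% interval −0.16 to 1.65, limma with Benjamini-Hochberg adjusted p = 0.15), where the groups overlapped. In the fit with the replicate block the adjusted p was 0.0032 as deposited and 0.0062 on the common total, so that the block restored the call there. As deposited the call ended without vehicle replicate 2 (adjusted p = 0.135), vehicle replicate 3 (0.127), DS-5272 replicate 1 (0.0844) or DS-5272 replicate 3 (0.0819). With the block and the values as deposited, 7 members were called higher and 0 lower, beside 30.3% and 24.9% of all genes.

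**Figure D4:**
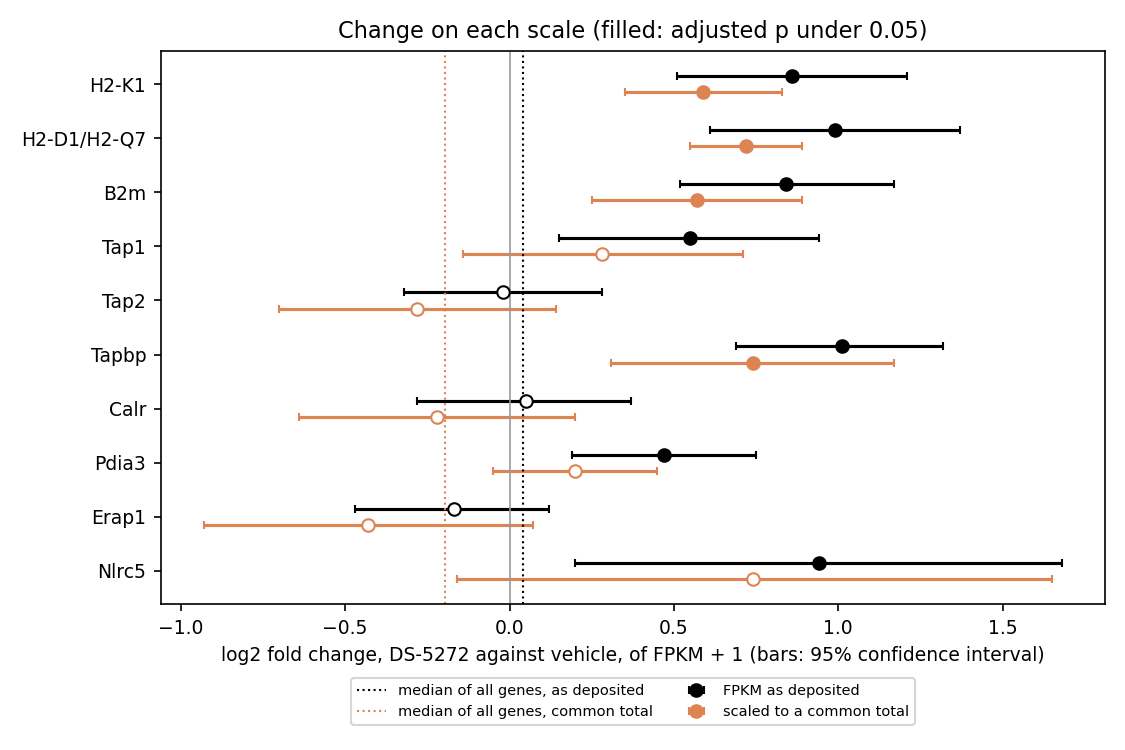
Log2 fold change of each member with its 95% confidence interval, as deposited (black) and scaled to a common total (orange), filled where the adjusted p is under 0.05. The dotted lines mark the median of all genes at 0.04 and −0.20, and Calr lies on opposite sides of 0 on the 2 scales.

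Scaling to a common total moves all genes by nearly the same amount, so changes relative to the median of all genes are close on both scales by construction. The log2 fold change minus that median was 0.82 as deposited and 0.79 on the common total for H2-K1, 0.95 and 0.92 for the H2-D1/H2-Q7 entry, and 0.80 and 0.77 for B2m. For Tapbp it was 0.96 and 0.94, and for Nlrc5 0.90 and 0.94. Tap1 came to 0.50 and 0.48 and Pdia3 to 0.43 and 0.40. Tap2, at −0.06 and −0.09, and Calr, at 0.00 and −0.02, lay close to the median gene, while Erap1 lay below it at −0.22 and −0.23.

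The genes most alike to 4 members were those with the smallest root mean square difference of log2(FPKM + 1) over the 6 samples, each gene centred on its mean. For H2-K1 they were Tln1 (0.0434), Fhod1 (0.0504) and Mtap7d1 (0.0520). For Tap1 they were Atxn7 (0.0402), Fbxo24 (0.05) and A130022J15Rik (0.0525). For Nlrc5 they were Cbr3 (0.0473), Tor3a (0.0479) and Ptprcap (0.0620), and for Calr Ascc3 (0.0348), Fdx1 (0.0353) and Ero1lb (0.0400). Members were left out of this search.

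Among other class I molecules 12 of 16 entries passed the minimum. Of these, 8 were called higher and 0 lower (limma, Benjamini-Hochberg), beside 24.2% and 22% of all genes, with 9 and 0 at an unadjusted p under 0.05. Their median log2 fold change was 0.77, beside 0.04 for all genes. On the common total 4 were called higher and 0 lower, beside 15.3% and 32%, with 6 and 0 at an unadjusted p under 0.05, and the median was 0.53 beside −0.20. As deposited, the count of 8 became 5 without vehicle replicate 2 and 4 without vehicle replicate 3. All genes higher then numbered 1654 of 11148 and 1811 of 11163. With the replicate block on the common total 8 were called higher and 1 lower, beside 20% and 40.8%. H2-Q10, a class I heavy chain known as a secreted product of the liver, stood at 14.7, 36.3 and 28.9 FPKM with vehicle and at 161, 204 and 307 FPKM with DS-5272. The lowest DS-5272 sample was several times the highest vehicle sample, and the log2 fold change was 3.06 (SE 0.36, limma with Benjamini-Hochberg adjusted p = 0.0024). H2-T23 encodes Qa-1, the ligand of the inhibitory NK receptor CD94/NKG2A, and shares an entry with H2-T24. This entry stood at 98, 85.3 and 82.6 FPKM with vehicle and at 238, 199 and 291 FPKM with DS-5272, with a log2 fold change of 1.43 (limma, Benjamini-Hochberg adjusted p = 0.0020). H2-Q6, of the Qa-2 family, stood at 3.7, 3.06 and 3.48 FPKM with vehicle and 6.88, 11 and 12.4 FPKM with DS-5272, a log2 fold change of 1.29 (limma, Benjamini-Hochberg adjusted p = 0.0049). In its transcript 13% of the 100-base stretches are shared with other genes, H2-Q7 among them, so that its value can include reads of that gene.

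Among the genes that supply peptides, 17 entries were tested, and 5 were called higher and 4 lower (limma, Benjamini-Hochberg), beside 24.2% and 22% of all genes, with a median of 0.04, the median of all genes. In the scaled values 0 were called higher and 5 lower, beside 15.3% and 32% of all genes, with 0 higher at an unadjusted limma p under 0.05 too and a median of −0.23. As deposited, the 5 became 0 without vehicle replicate 2 or 3, beside 1654 of 11148 and 1811 of 11163 genes. They became 3 without DS-5272 replicate 1 or 2, beside 2920 of 11083 and 2491 of 11142. Without DS-5272 replicate 3 they became 2, beside 2208 of 11108. The 4 became 1 without any single vehicle replicate, beside 1677 of 11132, 1404 of 11148 and 1489 of 11163 genes. They became 2 without DS-5272 replicate 1, beside 2446 of 11083. The 5 lower of the common total became 2 without any single vehicle replicate, beside 2200 of 11092, 2107 of 11145 and 2329 of 11161 genes. With the replicate block there, 2 were called higher and 8 lower, beside 20% and 40.8% of all genes. Thop1, a cytosolic peptidase that destroys peptides, stood at 22.7, 23.9 and 23.1 FPKM with vehicle and at 13.4, 14.5 and 6.59 FPKM with DS-5272. It fell without overlap, with a log2 fold change of −1.02 (limma, Benjamini-Hochberg adjusted p = 0.020), which missed the threshold without any 1 of the vehicle replicates (adjusted p = 0.0536, 0.0655 and 0.0567). Blmh, a cytosolic aminopeptidase, stood at 37.5, 38.1 and 38.4 FPKM with vehicle and at 21.9, 26.6 and 23.2 FPKM with DS-5272, a log2 fold change of −0.65 (limma, Benjamini-Hochberg adjusted p = 0.0046).

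Psmb10 and Psme1 supply subunits of the immunoproteasome and of its activator PA28. Psmb10 stood at 56.7, 44.1 and 35.8 FPKM with vehicle and at 85.7, 59.2 and 64.8 FPKM with DS-5272, a log2 fold change of 0.61 (limma, Benjamini-Hochberg adjusted p = 0.046). That call ended on the common total (adjusted p = 0.33), where the replicate block restored it (0.0252), and without any 1 replicate other than vehicle replicate 1. Psme1 stood at 166, 170 and 153 FPKM with vehicle and 230, 202 and 230 FPKM with DS-5272, a log2 fold change of 0.43 (limma, Benjamini-Hochberg adjusted p = 0.017). Its call ended on the common total (adjusted p = 0.36) and without vehicle replicate 2 (0.0565) or vehicle replicate 3 (0.0811). The immunoproteasome subunits next to the transporter genes, chosen after their values were seen, differed in their values. Psmb8 stood at 188, 167 and 153 FPKM with vehicle and 188, 175 and 158 FPKM with DS-5272. Psmb9, an exon of which overlaps Tap1, stood at 63, 47.1 and 49.2 FPKM with vehicle and 71.4, 67.1 and 70.4 FPKM with DS-5272.

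Among the other chaperones of the endoplasmic reticulum, 6 of 18 entries were called higher and 2 lower (limma, Benjamini-Hochberg), beside 24.2% and 22% of all genes, with a median of 0.10 beside 0.04. Scaled to a common total, 0 were called higher and 3 lower, beside 15.3% and 32%, with 0 higher at an unadjusted limma p under 0.05 too and a median of −0.16 beside −0.20. As deposited, the 6 became 1 without any single vehicle replicate, beside 1971 of 11132, 1654 of 11148 and 1811 of 11163 genes. They became 3 without DS-5272 replicate 1, beside 2920 of 11083. The 2 became 0 or 1 without any 1 of the 6 replicates, beside 1404 to 2446 genes. The 3 lower of the common total became 1 without vehicle replicate 1 or 2 or DS-5272 replicate 2. All genes then lower numbered 2200 of 11092, 2107 of 11145 and 2730 of 11183. The 3 became 0 without vehicle replicate 3, beside 2329 of 11161 genes, and 8 without DS-5272 replicate 1, beside 4450 of 11079. Mogs, the glucosidase that begins the trimming of N-glycans, stood at 36.4, 32.1 and 34.3 FPKM with vehicle and at 27.4, 24.7 and 15.4 FPKM with DS-5272, a log2 fold change of −0.62 (limma, Benjamini-Hochberg adjusted p = 0.046). Its call ended without vehicle replicate 1 (adjusted p = 0.12), vehicle replicate 2 (0.0958), vehicle replicate 3 (0.11) or DS-5272 replicate 2 (0.062). P4hb, protein disulfide isomerase, stood at 444, 575 and 601 FPKM with vehicle and 737, 762 and 796 FPKM with DS-5272, a log2 fold change of 0.51 (limma, Benjamini-Hochberg adjusted p = 0.030). Its call ended on the common total (adjusted p = 0.11) and without any 1 replicate other than DS-5272 replicate 1.

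Dnajb11, a cochaperone of BiP, stood at 76.1, 82.5 and 86.1 FPKM with vehicle and 112, 110 and 110 FPKM with DS-5272, a log2 fold change of 0.44 (limma, Benjamini-Hochberg adjusted p = 0.010), and its call ended on the common total (adjusted p = 0.27). Hspa5, which encodes BiP itself, was the most abundant of the list, at 361, 786 and 971 FPKM with vehicle and 573, 850 and 781 FPKM with DS-5272. Replicate 1 was the lowest in both groups, and the log2 fold change of 0.16 (95% interval −0.74 to 1.05, limma with Benjamini-Hochberg adjusted p = 0.75) turned to −0.11 on the common total.

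**Figure D5:**
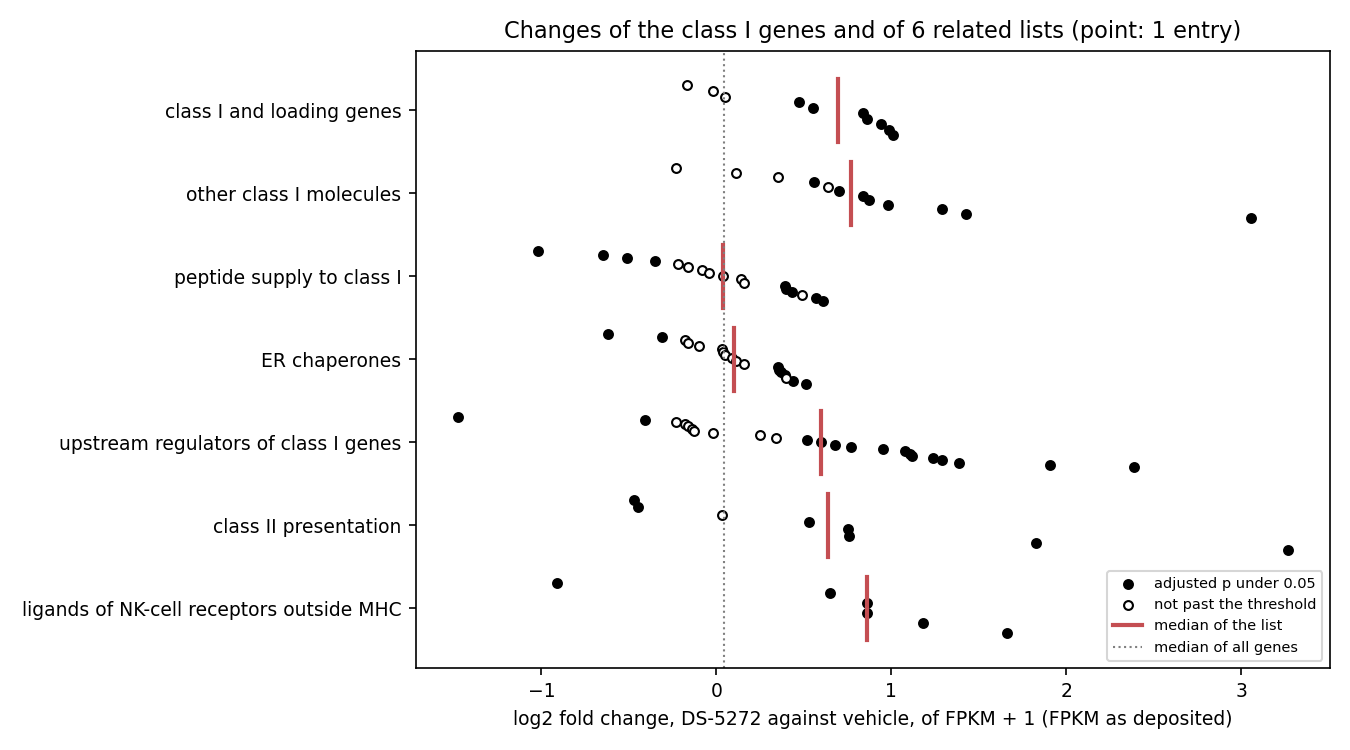
Log2 fold change as deposited of each tested entry of the members and of 6 related lists, filled where the adjusted p is under 0.05, with red bars at each list's median and the dotted line at the median of all genes. The medians of the members, of other class I molecules, of upstream regulators, of class II genes and of NK-cell ligands lie between 0.60 and 0.86, and those of peptide supply and chaperones at 0.04 and 0.10, while on the common total the last 2 are −0.23 and −0.16.

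Of the 23 upstream regulators of class I genes tested, 13 were called higher and 2 lower (limma, Benjamini-Hochberg), beside 24.2% and 22% of all genes, with a median of 0.60 beside 0.04 for all genes. With a common total 10 were called higher and 6 lower, beside 15.3% and 32%, with a median of 0.35 beside −0.20. As deposited, the 2 lower became 1 without any single vehicle replicate, beside 1677 of 11132, 1404 of 11148 and 1489 of 11163 genes. On the common total the 10 higher became 6 without vehicle replicate 2 or 3, beside 1095 of 11145 and 1161 of 11161. The 6 lower became 4 without any 1 replicate other than DS-5272 replicate 1, beside 2107 to 2977 genes. With the replicate block there, 13 were called higher and 7 lower, beside 20% and 40.8% of all genes. Irf7, an interferon-induced transcription factor, stood at 55.7, 34 and 26.5 FPKM with vehicle and at 278, 147 and 190 FPKM with DS-5272. Replicate 1 was again the highest of each group, as for Nlrc5, and the log2 fold change was 2.39 (limma, Benjamini-Hochberg adjusted p = 0.0033). Relb, an NF-kappaB subunit, stood at 1.2, 2.06 and 2.31 FPKM with vehicle and at 4.59, 12.1 and 15 FPKM with DS-5272, a log2 fold change of 1.91 (limma, Benjamini-Hochberg adjusted p = 0.010). Ezh2, the histone H3 methyltransferase of Polycomb repressive complex PRC2, stood at 46.6, 40.3 and 44.1 FPKM with vehicle and at 13.5, 22.5 and 10.9 FPKM with DS-5272. It fell without overlap, with a log2 fold change of −1.48 (limma, Benjamini-Hochberg adjusted p = 0.0052).

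Ifngr1, the ligand-binding chain of the interferon gamma receptor, was the most abundant of these regulators, at 234, 216 and 208 FPKM with vehicle and 303, 231 and 309 FPKM with DS-5272. Its groups overlapped, with a log2 fold change of 0.34 (limma, Benjamini-Hochberg adjusted p = 0.088) that was past the threshold in the fit with the replicate block (adjusted p = 0.0423) and without DS-5272 replicate 2 (0.0227) and turned to −0.03 under quantile normalization. On the common total the log2 fold change was 0.08 (limma, Benjamini-Hochberg adjusted p = 0.73), and the replicate block gave no call there (0.51). Some genes are added here although they were chosen after their values were seen. Irf1, an interferon regulatory factor, stood at 24.4, 30.7 and 33.5 FPKM with vehicle and 49.4, 75.6 and 104 FPKM with DS-5272. Rfx5, a subunit of the complex at the X1 box, stood at 6.77, 4.62 and 4.53 FPKM with vehicle and 9.75, 6.84 and 10.8 FPKM with DS-5272. It was called higher as deposited (limma, Benjamini-Hochberg adjusted p = 0.033). The call of Rfx5 ended on the common total (adjusted p = 0.17), where the replicate block restored it (0.032). Nfyb, a subunit of the factor that reads CCAAT, was the other regulator called lower, at 12.4, 11.8 and 12.3 FPKM with vehicle and 7.9, 9.59 and 9.39 FPKM with DS-5272.

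Class II genes present peptides of engulfed proteins and belong mostly to dendritic cells, B cells and macrophages. Of 10 entries, 8 passed the minimum, and 5 were called higher and 2 lower (limma, Benjamini-Hochberg), beside 24.2% and 22% of all genes, with a median of 0.64 beside 0.04. After scaling to a common total 4 were called higher and 2 lower, beside 15.3% and 32%, with a median of 0.44 beside −0.20. As deposited, the 2 lower became 0 without vehicle replicate 2, beside 1404 of 11148 genes. They became 1 without any 1 of vehicle replicates 1 and 3 and DS-5272 replicates 1 and 2, beside 1489 to 2446 genes. The 4 higher of the common total became 2 without vehicle replicate 2 or 3, beside 1095 of 11145 and 1161 of 11161 genes. The 2 lower became 1 without vehicle replicate 2, beside 2107 of 11145. Ctss, the protease that removes the invariant chain, stood at 52.1, 36.2 and 32.4 FPKM with vehicle and at 360, 353 and 460 FPKM with DS-5272, a log2 fold change of 3.27 (limma, Benjamini-Hochberg adjusted p = 0.00061). The entry of Cd74, the invariant chain, with Mir5107 stood at 1.05, 1.6 and 1.23 FPKM with vehicle and at 6.9, 6.97 and 7.54 FPKM with DS-5272, a log2 fold change of 1.83 (limma, Benjamini-Hochberg adjusted p = 0.00069). The joined entry of H2-DMb1 and H2-DMb2, chains of the peptide editor of class II, stood at 37, 41.5 and 38.8 FPKM with vehicle and 67.8, 62.2 and 71.3 FPKM with DS-5272, a log2 fold change of 0.76 (limma, Benjamini-Hochberg adjusted p = 0.0029). On the common total this entry missed the threshold without vehicle replicate 2 (adjusted p = 0.0511) or vehicle replicate 3 (0.0627). The 2 entries called lower, chosen after their values were seen, were H2-Ab1, a classical class II chain, and H2-Oa, a chain of H2-O. H2-Ab1 stood at 14, 15.2 and 14.4 FPKM with vehicle and 11.1, 10.2 and 9.71 FPKM with DS-5272, a log2 fold change of −0.45 (limma, Benjamini-Hochberg adjusted p = 0.011). For H2-Oa the values were 3.01, 2.76 and 2.94 FPKM with vehicle and 1.46, 1.71 and 2.33 FPKM with DS-5272, a log2 fold change of −0.47 (limma, Benjamini-Hochberg adjusted p = 0.038). Ciita, the class II counterpart of Nlrc5 and chosen after its values were seen, was at or below 0.0118 FPKM in every sample.

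Ligands of NK-cell receptors outside the MHC were described because class I molecules are the other side of NK-cell recognition. Of 8 entries, 6 passed the minimum, and 5 were called higher and 1 lower (limma, Benjamini-Hochberg), beside 24.2% and 22% of all genes, with a median of 0.86 beside 0.04. On the common total 2 were called higher and 1 lower, beside 15.3% and 32%, with a median of 0.61 beside −0.20. As deposited, the 5 became 2 without vehicle replicate 2 or 3, beside 1654 of 11148 and 1811 of 11163 genes. They became 3 without DS-5272 replicate 1 or 3, beside 2920 of 11083 and 2208 of 11108. The 2 higher of the common total became 1 without vehicle replicate 2 or 3, beside 1095 of 11145 and 1161 of 11161 genes. Without DS-5272 replicate 1 they also became 1, beside 1702 of 11079, and with the replicate block 5, beside 20% of all genes. Pvrl2, nectin-2, stood at 10.4, 13.4 and 11.9 FPKM with vehicle and at 40.4, 34.7 and 44.6 FPKM with DS-5272, a log2 fold change of 1.66 (limma, Benjamini-Hochberg adjusted p = 0.00084). Clec2d stood at 5.88, 3.16 and 2.98 FPKM with vehicle and 13.9, 6.22 and 11.3 FPKM with DS-5272, a log2 fold change of 1.18 (limma, Benjamini-Hochberg adjusted p = 0.024). Its call ended on the common total (adjusted p = 0.075), where the replicate block restored it (0.00606), and without any 1 of vehicle replicates 2 and 3 and DS-5272 replicates 1 and 3.

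Ulbp1, a ligand of the activating receptor NKG2D, went the other way, at 16.4, 14.1 and 12.6 FPKM with vehicle and 5.03, 8.79 and 8.21 FPKM with DS-5272. Its groups did not overlap, and the log2 fold change was −0.91 (limma, Benjamini-Hochberg adjusted p = 0.013). Cd48, the ligand of CD244, stood at 42.9, 28.9 and 31 FPKM with vehicle and 60.5, 50.9 and 50 FPKM with DS-5272, a log2 fold change of 0.65 (limma, Benjamini-Hochberg adjusted p = 0.020), and its call ended on the common total (adjusted p = 0.22), where the replicate block restored it (0.0202), and without vehicle replicate 2 (0.0732) or vehicle replicate 3 (0.0711).

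Markers of other cells that a sorted sample could hold moved with the treatment in part. The 9 bone marrow macrophage markers summed to 63.9, 86.5 and 117 FPKM with vehicle and to 438, 188 and 244 FPKM with DS-5272, with 6 of the 9 higher in every DS-5272 sample, beside 32.1% of all genes, and 4 of the 9 called higher, beside 24.2%. The most abundant, Vcam1, which leukemia cells can carry too, was not among the 6, at 36.6, 64.1 and 82.8 FPKM with vehicle and 143, 74.8 and 85.7 FPKM with DS-5272. The 5 erythroid entries summed to 4.61, 2.62 and 2.46 FPKM with vehicle and to 146, 27.3 and 12.7 FPKM with DS-5272, with Hba-a1 the most abundant, 2 of the 5 higher in every DS-5272 sample and Klf1 under 1 FPKM in every sample. Both sums were highest in DS-5272 replicate 1, which was also the highest DS-5272 sample for Nlrc5, Tapbp, Tap2, Erap1 and Calr as deposited, and for B2m, Tap1 and Pdia3 too on the common total. H2-K1 and the H2-D1/H2-Q7 entry were highest in DS-5272 replicate 3 on both scales. Without DS-5272 replicate 1, 5 members were called higher as deposited, Tap1 and Nlrc5 being lost (log2 fold changes 0.57 and 0.65, from 0.55 and 0.94), and 0 lower, beside 2920 and 2446 of 11083 genes. On the common total 4 were then called higher and 2, Erap1 and Calr, lower, beside 1702 and 4450 of 11079 genes.

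The 8 markers of stroma and endothelium summed to 60, 31.1 and 29.1 FPKM with vehicle and to 112, 73.4 and 81.1 FPKM with DS-5272. Pecam1 made up most of this sum, and Cdh5, Kdr, Emcn, Col1a2, Lepr and Cxcl12 were under 1 FPKM in every sample. The 5 megakaryocyte markers summed to 2.81, 2.62 and 2.91 FPKM with vehicle and to 8.19, 5.66 and 4.96 FPKM with DS-5272, with Itga2b the most abundant and 3 of the 5 higher in every DS-5272 sample. The 6 dendritic cell markers summed to 55, 34.8 and 29.6 FPKM with vehicle and to 6.17, 10.4 and 8.99 FPKM with DS-5272, with 1 of the 6 higher in every DS-5272 sample. Flt3, at 54.1, 34 and 29.1 FPKM with vehicle and 2.75, 1.51 and 1.23 FPKM with DS-5272, made up most of the vehicle sum and was called lower. Whether the Flt3 RNA came from dendritic cells or from the leukemia cells was not tested. Itgax, at 0.744, 0.554 and 0.449 FPKM with vehicle and 3.02, 8.74 and 7.43 FPKM with DS-5272, was called higher, and Zbtb46, Xcr1, Clec9a and Siglech were under 1 FPKM in every sample. Itgax passed the minimum mean of 1 FPKM only through its DS-5272 values, so its call depends on the group where it is high.

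Most lymphocyte markers were under 1 FPKM in every sample. The 7 NK-cell markers summed to 0.764, 0.528 and 0.966 FPKM with vehicle and to 3.86, 1.98 and 1.63 FPKM with DS-5272, with Gzma the most abundant and the other 6, Ncr1, Klrb1c, Klrk1, Klre1, Prf1 and Eomes, under 1 FPKM in every sample. The 6 T-cell markers summed to 0.43, 0.343 and 0.405 FPKM with vehicle and to 3.54, 0.705 and 1.35 FPKM with DS-5272, with Cd4 the most abundant and Cd3e, Cd3d, Cd3g, Cd8a and Cd8b1 under 1 FPKM throughout. The 6 B-cell markers summed to 4.85, 5.02 and 4.32 FPKM with vehicle and to 4.34, 4.05 and 3.39 FPKM with DS-5272, nearly all of it Cd79b. The part of these cells in the changes of the class I genes was not tested.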

How the data were processed

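RNA-Seq was performed on sorted MLL-AF9 cells from 3 vehicle- and 3 DS-5272-treated mice. Per the submitters' processing notes and the paper's methods, the authors trimmed reads with cutadapt 1.8.1, aligned them to GRCm38 reference transcripts with TopHat2 2.1.1 and computed the deposited FPKM values with Cufflinks 2.2.1, so length and library size were already divided out. Lines sharing a name were summed (435 of the 26082 names). Entries joining several genes (433 lines) were used for H2-D1 and where all their names belonged to 1 list or were microRNA genes, a rule chosen after the table was seen, as was the use of the older symbol Pvrl2 for Nectin2. Among the markers, the older symbols Sfpi1 and Emr1 were used for Spi1 and Adgre1.

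Groups were compared with limma 3.58.1 in R 4.3.3 (lmFit and eBayes with trend, two-sided) on log2(FPKM + 1) over the 11130 entries with a mean of at least 1 FPKM, with Benjamini-Hochberg adjustment and a threshold of 0.05. Summaries, exact permutation tests of 6 log2 ratios, promoter searches and figures were made in Python 3.11.15 (pandas 2.3.3, numpy 2.4.6, matplotlib 3.10.9). The scripts were tested on simulated data. Depth was estimated from 11921 entries with low FPKM and 399 genes with a single transcript. No counting interval was derived from this estimate.

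Named genes were the members, the 3 largest changes past the threshold and the most abundant entry of each related list, and the 3 genes most alike to each of H2-K1, Tap1, Nlrc5 and Calr. Values of some listed genes are not reported here. The members and lists were chosen with earlier results of these data known. Replicate numbers come from the sample labels. Same-numbered samples deviated together from their group means (correlations 0.658, 0.209 and 0.430 for numbers 1, 2 and 3), all over 0.1, so the numbers may pair the samples. Samples of different numbers correlated from −0.576 to 0.335, and vehicle replicate 2 correlated more with DS-5272 replicate 3 (0.335) than with replicate 2. The fits and ratio tests given first have no block. Calls that the replicate block changed on the same scale are given for the members, the genes named by rule and the most-alike genes, beside the gene or below. For the marker lists they are not all given. The other settings tried were no filter, a pseudocount of 0.1, a minimum mean of 5 FPKM, 4 other scalings, the replicate block, eBayes without trend, a minimum log2 fold change of 1, the highest line per name and leaving out each replicate. Leaving out each replicate on the common total was added after the data were seen.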

Additional observations from a re-analysis of the deposited data

How the results depend on the processing

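H2-K1 and the H2-D1/H2-Q7 entry kept their direction and their call in every alternative but a minimum log2 fold change of 1 (0.86 and 0.99), with adjusted p from 0.00227 to 0.0343 and from 0.00129 to 0.0281. B2m and Tapbp kept their direction, with adjusted p from 0.00108 to 0.0555 and from 0.00136 to 0.0609, and B2m missed the minimum at 0.84. Tap1 (adjusted p from 0.0271 to 0.518) lost its call without a filter (0.55), on a common total (0.28), a common upper quartile (0.41) and quantile normalization (0.36), with the replicate block on a common total (0.28) and with the minimum of 1 (0.55). Nlrc5 (0.00317 to 0.323) lost it without a filter (0.94), on a common total (0.74), a common upper quartile (0.84) and the median ratio (0.91) and with the minimum of 1 (0.94), and a minimum mean of 5 FPKM left it out. Pdia3 (0.00639 to 0.65) lost it on a common total (0.20), quantile normalization (0.075), the block on a common total (0.20) and the minimum of 1 (0.47). Calr turned negative on a common total (−0.22), a common upper quartile (−0.0934), quantile normalization (−0.20) and the block on a common total (−0.22). Tap2 (−0.28) and Erap1 (−0.43) were called lower with the block on a common total.

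Without 1 replicate at a time, as deposited or on a common total, log2 fold changes ran from 0.46 to 0.90 for B2m, 0.17 to 0.66 for Tap1, −0.42 to 0.0854 for Tap2, 0.58 to 1.11 for Tapbp, 0.37 to 1.17 for Nlrc5, −0.62 to −0.0745 for Erap1, −0.40 to 0.13 for Calr and 0.11 to 0.54 for Pdia3, and the log2 ratio of H2-K1 to B2m from −0.0626 to 0.12. The members called higher numbered from 2 to 7 and lower from 0 to 2, beside 4 higher on a common total, 1 with the minimum of 1, and 2 lower with the block on a common total. Among other named genes, Ascc3 turned to −0.18 on a common total, −0.062 on a common upper quartile and −0.18 with the block on a common total (without 1 replicate −0.34 to 0.13), Ero1lb to −0.13, −0.0197 and −0.13 (−0.33 to 0.20) and Fdx1 to −0.17, −0.0531 and −0.17 (−0.34 to 0.17). Hspa5 turned to −0.11 on a common total, −0.21 on quantile normalization and −0.11 with the block on a common total (−0.48 to 0.44), and Ifngr1 to −0.0315 on quantile normalization (−0.0855 to 0.48). The call of Mogs ended without a filter (adjusted p = 0.0793), on the median ratio (0.0556) and with eBayes without trend (0.0502). Psmb10 lost it there too (0.0785, 0.0678 and 0.0504), on a common upper quartile (0.142) and on quantile normalization (0.202). Dnajb11 (0.187), P4hb (0.459), Psme1 (0.631) and Cd48 (0.0871) lost it on quantile normalization. P4hb (0.0716) and Clec2d (0.0527) lost it without a filter, and Psme1 (0.0626) and Cd48 (0.0743) on a common upper quartile. The cause was not tested.

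Of all genes, 3367 were higher and 2771 lower with the replicate block, 2234 and 4546 with the block on a common total, 978 and 621 with the minimum of 1, and from 1095 to 2920 and from 1404 to 4450 without 1 replicate. With the values as deposited the block changed the call of no member. Of the context genes named by rule and the most-alike genes it changed those of Ifngr1 (adjusted p = 0.0423) and Fbxo24 (0.0424). On the common total it restored the calls of Nlrc5 (adjusted p = 0.00621), Psmb10 (0.0252), Cd48 (0.0202), Clec2d (0.00606), A130022J15Rik (0.0493), Cbr3 (0.0063), Ptprcap (0.00456) and Tor3a (0.0063), called Tap2 and Erap1 lower, and changed no other call of the members, the context genes named by rule or the most-alike genes. With 3 mice a group, small changes could have been missed, and how far the lower depth of each DS-5272 sample added to this was not tested.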
